A study of Homo sapiens with 26 samples.

Results

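Peak lists of 2 histone marks were compared in HCT116 cells after 10 h of Nutlin-3a, the H3K27ac lists of replicates 1 and 2 against the H3K4me1 lists of replicates 1 and 2. HCT116 is a colorectal carcinoma line with wild-type p53. Nutlin-3a blocks the p53-HDM2 interaction and thereby raises p53. Cells given the vehicle DMSO (Nut 0 h) and cells after 1 h (Nut 1 h) were profiled for both marks. A derivative line, which the labels name for the cohesin subunit RAD21 and which is called the RAD21 line here, was profiled for H3K27ac at 0 h and 1 h. According to the methods, its RAD21 carries an auxin-inducible degron and the line served for cohesin depletion, while the labels give only DMSO or Nutlin-3a, so it is no plain 0 h control. Every group held 2 libraries, each with a peak list of its own. The labels number the libraries BR1 and BR2, and the study describes them as biological replicates. All 4 lists at 10 h carry "input" in their peak names, whereas both WT 0 h H3K27ac lists and replicate 1 of WT 1 h do not. This difference bears on every result below that sets WT H3K27ac calls of 0 h or 1 h beside those of 10 h.

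H3K27ac, acetylation of lysine 27 of histone H3, marks active promoters and active enhancers. H3K4me1, monomethylation of lysine 4, marks enhancers whether primed or active, and flanks active promoters, where the nucleosomes closest to the start site carry trimethylation instead. A distal element with H3K4me1 alone is therefore usually read as primed, and one with both marks as active. p53 binds a response element of 2 half-sites of 10 bases and activates genes of cell cycle arrest, apoptosis and DNA repair.

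Overlapping peaks from replicates 1 and 2 of a mark were joined into regions, and only regions with a peak from each replicate were kept. This gave 35103 H3K27ac regions and 74920 H3K4me1 regions at 10 h, in all 110023 regions, beside 87603 and 110276 regions when all lists of the mark in the series were merged. Of the H3K27ac regions, 28526 (81.3%, 95% Wilson interval 80.9 to 81.7) overlapped an H3K4me1 region by at least 1 bp and 6577 (18.7%, 18.3 to 19.1) did not. From a single H3K27ac list, without replicate 1 or replicate 2, the latter count was 12603 or 14705. Of the H3K4me1 regions, 26790 (35.8%) overlapped H3K27ac and 48130 (64.2%) did not. The 3 classes are called H3K27ac only, both marks and H3K4me1 only. With 2 lists against 2 lists the smallest exact permutation p is 0.333, so the classes are described and not tested. Intervals cover counting error over regions only, and the lists hold no read counts, so the sequencing depth behind them is unknown. The lists at 10 h held 49127 and 46638 H3K27ac peaks and 84492 and 89231 H3K4me1 peaks.

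The labelled cell type was checked against marker promoters. Promoters of 11 of 14 epithelial markers held both marks, LGALS4 and VIL1 held neither, and CEACAM5 held H3K4me1 alone. Of 10 blood cell markers and 9 markers of endothelium and fibroblasts found in the annotation, 0 held H3K27ac, while 4 of 10 neuronal and 1 of 10 muscle and liver markers held both marks.

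Sequences are given first for the response elements, because the letters of the element were denser per Mb in H3K27ac only than in the other classes. The letters searched were 2 half-sites of the published p53 consensus with no base between them, a pattern that reads the same on both strands. Whole regions of H3K27ac only held 48 such elements in 6.65 Mb, or 7.22 per Mb. The H3K27ac regions of both marks held 107 (1.75 per Mb), the H3K4me1 regions of both marks 121 in 120 Mb and H3K4me1 only 71 (0.993 per Mb). The GRCh37 genome held 550, or 0.192 per Mb. Away from promoters the densities were 7.52 per Mb in H3K27ac only and 3.5 per Mb in the H3K27ac regions of both marks. Counted by region, an element stood in 0.719% of distal H3K27ac only regions and 0.578% of distal H3K27ac regions of both marks. The share was 0.737% for distal H3K4me1 regions of both marks and 0.157% for distal H3K4me1 only. Per region, H3K27ac only thus lay close to both marks. A match of letters is a description and does not show binding. Of the 11 p53 targets chosen whatever their values, only PLK2 had an element in its promoter H3K27ac regions. The others, CDKN1A and MDM2 among them, had 0, even with up to 13 bases allowed between the half-sites. The search allowed no mismatch within a half-site, so a count of 0 does not show that a response element is absent. The 3 strongest H3K27ac only regions with an element that lie over no promoter are printed, then the strongest such region of both marks. Last comes the element upstream of PLK2, a p53 target kinase. It stood at −2145 bp from the start site, beyond the 1000 bp taken as promoter, in an H3K27ac region that reaches the promoter. All printed sequences are GRCh37, plus strand, 5′ to 3′, with the element in capitals and 15 bases on each side.

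H3K27ac only, 79361 bp from the start site of FBXO47 (chr17:37203114-37203163): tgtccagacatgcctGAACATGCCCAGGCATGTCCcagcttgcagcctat
H3K27ac only, 35845 bp from IFNGR2 (chr21:34739674-34739723): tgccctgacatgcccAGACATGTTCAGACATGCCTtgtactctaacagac
H3K27ac only, 30026 bp from CLRN3 (chr10:129661614-129661663): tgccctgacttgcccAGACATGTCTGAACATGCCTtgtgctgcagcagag
Both marks, 43112 bp from TGFA (chr2:70824207-70824256): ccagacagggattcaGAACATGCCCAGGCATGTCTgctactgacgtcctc
Both marks, promoter region of PLK2 (chr5:57758086-57758135): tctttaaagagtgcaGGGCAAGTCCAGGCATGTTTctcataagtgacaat

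The 3 H3K27ac only regions were strong and had no H3K4me1 peak in either 10 h list. The region near FBXO47 (chr17:37201809-37204224, in an exon of a non-coding gene) had H3K27ac folds of 30 and 32.9 over the background that the peak caller estimated locally. The region near IFNGR2, which encodes a chain of the interferon gamma receptor, had folds of 28.2 and 33.8 (chr21:34738535-34741212). The region near CLRN3 had folds of 17.9 and 11.9 (chr10:129660086-129662272). All 3 were called for H3K27ac in both WT lists of 0 h and of 1 h as well.

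Many of the regions with an element shared sequence. Of the 46 H3K27ac only regions with an element, 26 (56.5%) had it within 150 bp of the replicate 1 summit, as did 50 of 106 (47.2%) of both marks, whose regions are wider. Of the 46, 36 (78.3%) shared a run of 20 identical bases with another of the 46. The other classes were alike in this, each counted within itself. It held for 81 of the 106 (76.4%), 110 of 120 H3K4me1 regions of both marks (91.7%) and 47 of 71 of H3K4me1 only (66.2%). Among the 6531 H3K27ac only regions without an element, 3860 (59.1%) shared such a run with one that had it. The 46 regions were called in both WT 0 h lists in 9 cases and in neither in 29 (63.0%), whereas 89.5% of the whole class was in neither. For both marks, 50 of the 106 regions with an element were in neither WT 0 h list (47.2%), against 18.4% of the whole class. In the RAD21 line at 0 h, whose lists do carry "input" in their names, 31 of the 46 (67.4%) and 54 of the 106 (50.9%) were in neither list, against 56.8% and 14.7% of the classes. Among regions of both marks, those with an element were thus called less often at 0 h than the class in either cell line. This is a description without a test. The sets differ in place, since 17 of the 106 lay over a promoter, against 46% of the class. No comparison with distal regions alone was made. At 1 h, 51 of the 106 (48.1%) were in neither list of the RAD21 line and 35 (33%) in neither WT list. For the 46 regions of H3K27ac only the counts were 36 (78.3%) and 24 (52.2%). A gain of H3K27ac at regions with an element was not tested.

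The classes differed in width and place. The median width was 818 bp for H3K27ac only, 1622 bp for H3K27ac regions of both marks, 2972 bp for H3K4me1 regions of both marks and 1128 bp for H3K4me1 only. Taken per list, the median peak width was 580 ± 54.4 bp, 1388 ± 4.95 bp, 2512 ± 310 bp and 958 ± 95.5 bp (SD, n = 2). The H3K27ac lists were called in narrow mode and the H3K4me1 lists in broad mode, so widths are best compared within a mark. Within each mark, regions that carried the other mark were wider by more than the spread between lists. The class rule of a 1 bp overlap favours this direction, since a wider region is more likely to touch the other mark. The median for H3K27ac only also moved with the peak threshold. With −log10 q of at least 5 it was 1363 bp when applied to H3K27ac and H3K4me1, 1266 bp for H3K27ac alone and 894 bp for H3K4me1 alone. The widest regions were 15023 bp, 68766 bp, 141491 bp and 27966 bp. H3K27ac only covered 6.65 Mb in all, both marks 61 Mb as H3K27ac and 120 Mb as H3K4me1, and H3K4me1 only 71.5 Mb.

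Promoters lay far more often under regions of both marks than under the other classes. A promoter, taken from 1000 bp before to 200 bp after a transcription start site, was overlapped by 46% of H3K27ac regions of both marks (45.4 to 46.6) and by 53.4% of H3K4me1 regions of both marks. The share was 6.9% for H3K27ac only (6.32 to 7.54) and 9.85% for H3K4me1 only, while promoters make up 2.82% of the genome. Per list, 43.6 ± 0.167% of H3K27ac peaks of both marks and 6.13 ± 0.343% of those of H3K27ac only lay over a promoter (SD, n = 2), so the gap was far larger than the spread between lists. The share for H3K27ac only depended on the peak threshold. With −log10 q of at least 5 in both marks, 3499 regions were H3K27ac only and 36.3% lay over a promoter. With that threshold in H3K4me1 alone the share was 17.6%, and in H3K27ac alone, where 1578 regions were left, 10.1%. Of the 3499 regions, 45% overlapped H3K27ac only as found without the threshold.

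H3K27ac only lay mainly inside genes. A protein-coding gene body was overlapped by 92.4% of its regions (91.7 to 93), against 76.8% of the H3K27ac regions of both marks and 53.5% of H3K4me1 only, with 42.2% of the genome in such genes. An exon was overlapped by 39.5%, 54.7% and 18.3%. Under the 3 stricter thresholds above, 83% to 89.1% of H3K27ac only overlapped a gene body, but the regions were partly others. With the threshold in both marks, 45% of them overlapped the class found without it. With it in H3K4me1 alone the figure was 68.7%, and in H3K27ac alone 99.7%.

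**Figure D1:**
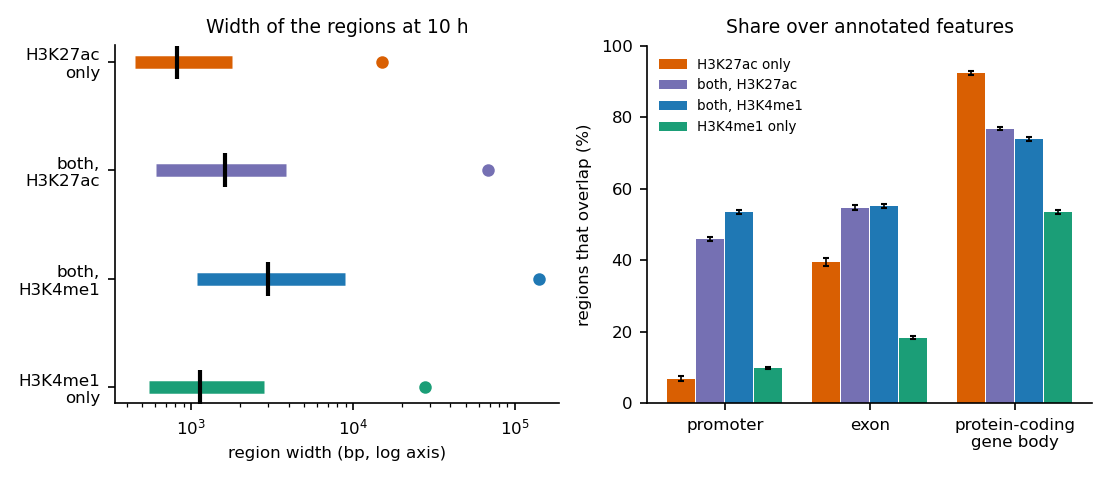
Left, width of the regions of each class at 10 h on a log axis in bp, with the bar from the 10th to the 90th percentile, the black line at the median and the point at the widest region. Right, share of regions over a promoter, an exon or a protein-coding gene body, with 95% Wilson intervals: H3K27ac only stands at 6.9% over promoters and 92.4% over gene bodies.

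Within genes, H3K27ac only leaned towards the distal end. Of 5656 regions of this class off promoters and with their midpoint in a protein-coding gene, 21% lay in the first part, 37.5% in the middle part and 41.5% in the last part when each gene was cut into 3 equal lengths. For both marks these shares were 36.1%, 33.1% and 30.8%, and for H3K4me1 only 35.1%, 33.9% and 31.1%. The genes were almost all acetylated at their promoters: 98.2% of these H3K27ac only regions lay in genes with H3K27ac at the promoter, against 88.2% for both marks and 71.5% for H3K4me1 only. Such genes were 60.4% of protein-coding genes and made up 58% of protein-coding gene length. The regions lay in 2554 genes, 258 of which held at least 5.

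The genes with the most H3K27ac only regions were looked up after the values were seen. PRKDC, the catalytic subunit of DNA-dependent protein kinase, held 29, and FANCA, of the Fanconi anaemia repair pathway, held 24. MAD1L1, a spindle checkpoint gene, held 20, and IARS1, the cytosolic isoleucyl-tRNA synthetase, 19. The chromatin remodelling gene BAZ1B and the tubulin cofactor gene TBCD held 18 each. All 6 carried both marks at their promoters. The share of H3K27ac regions without H3K4me1 ranged over chromosomes from 8.07% on X to 28.9% on chromosome 21.

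Among H3K27ac regions, H3K27ac only was the weaker class. Each region was given its percentile by −log10 p within each list of its mark, averaged over the 2 lists. The median percentile was 31.5 for H3K27ac only and 69.6 for H3K27ac regions of both marks. The median fold over the local background was 3.88 and 3.78 in the 2 lists for H3K27ac only, and 9.67 and 9.89 for both marks. On the H3K4me1 side the median percentile was 41.3 for H3K4me1 only and 76.9 for both marks, with folds of 3.45 and 3.69 against 5.24 and 5.76. Only 12 H3K27ac only regions reached the 80th percentile, against 9493 of both marks, while 4578 H3K4me1 only regions did so.

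Strength and overlap moved together along the whole range. In the weakest decile of H3K27ac regions, 56.7% had no H3K4me1 region and 7.21% lay over a promoter. By the sixth decile 4.59% had none, and in the strongest decile, where 92.1% lay over a promoter, 0 of 3510 had none. The overlap of H3K4me1 regions climbed with strength too. Of their weakest decile 5.13% overlapped H3K27ac, and of the strongest 82.6%, although promoters stayed near 40% of the upper deciles (36.6% to 41.4% in deciles 7 to 10). Width grew along the same deciles. From the weakest to the strongest, the median went from 622 to 3180 bp for H3K27ac and from 708 to 4540 bp for H3K4me1. A wider region meets a 1 bp overlap rule more readily, and the share of width in these trends was not tested.

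**Figure D2:**
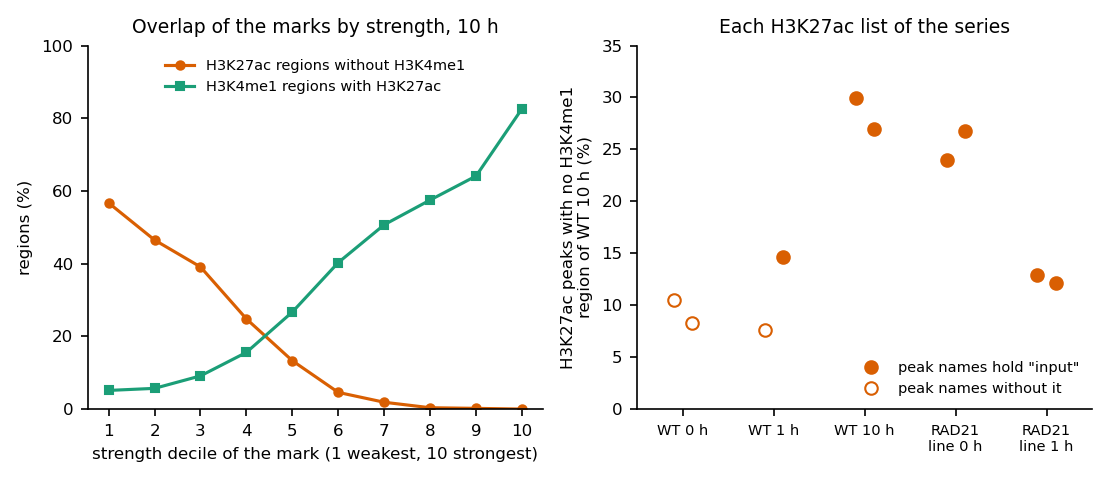
Left, share of H3K27ac regions without H3K4me1 and of H3K4me1 regions with H3K27ac at 10 h, by decile of the mean within-list percentile: the first falls from 56.7% to 0, the second climbs from 5.13% to 82.6%. Right, share of H3K27ac peaks of each list of the series that overlap no H3K4me1 region of WT 10 h, filled where the peak names carry "input": the WT 10 h lists stand at 29.9% and 27%, the 3 lists without it between 7.65% and 10.5%.

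Where both marks met, they met in 2 patterns. At distal H3K27ac regions the summit itself lay in an H3K4me1 peak in 94.5% and 96.3% of cases in replicates 1 and 2, and 85.4% of these regions were covered by H3K4me1 along their whole length. At promoters only 58.3% and 65.3% of summits lay in an H3K4me1 peak, and the share climbed to 80.7% and 83.9% at 900 bp from the summit. There 59.2% of regions were fully covered, and 16.6% were covered over less than 50% of their length, against 3.86% of distal regions. H3K27ac only summits had H3K4me1 in 1.13% and 3.76% of cases, a low value that the class rule fixes in advance. At 5000 bp from the summit the share was no more than 13.9%. There it was 20.7% to 23.2% for promoter regions of both marks and 32.1% to 35.8% for distal ones.

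**Figure D3:**
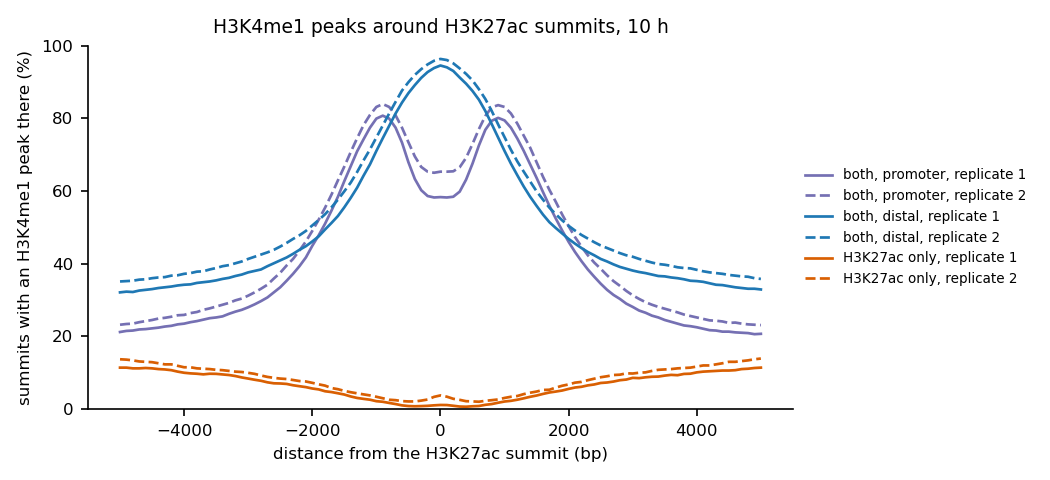
Share of H3K27ac summits of WT 10 h that have an H3K4me1 peak of the same replicate number at each distance in bp, for promoter and distal regions of both marks and for H3K27ac only. The promoter curve dips to 58.3% and 65.3% at the summit between shoulders at 900 bp and the distal curve peaks at the summit. The curve of H3K27ac only stays low, which its class rule fixes in advance at the summit.

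Few H3K27ac only regions adjoined an H3K4me1 region. The median gap to the nearest H3K4me1 region was 6816 bp. It was at most 1000 bp for 9.72% of the class, and its quartiles were 2646 and 14321 bp. The median gap to the nearest H3K27ac region of both marks was 9091 bp. In 92% of the class neither 10 h H3K4me1 list held a peak, and in 83% none of the 4 H3K4me1 lists of 0 h and 1 h did.

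The sequence under the classes differed as well. In windows of 300 bp around the H3K27ac summit, the ratio of observed to expected CpG was 0.6 or more in 74.1% of promoter regions of both marks. It was so in 15.4% of promoter regions of H3K27ac only and in 64.5% of windows around protein-coding start sites. Away from promoters it was 7.9% for both marks, 1.93% for H3K27ac only and 2.98% for windows set every 100 kb along the genome. In promoter regions the CpG content of H3K27ac only thus lay well below that of both marks. These promoter sets differ in kind. Of the 454 promoter regions of H3K27ac only, 143 lay over a protein-coding promoter, against 11208 of 13128 of both marks. Protein-coding promoters alone were not compared.

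Motif letters were counted on both strands in windows of 300 bp. TGANTCA, the letters bound by AP-1, stood at the midpoints of 28.2% of distal H3K4me1 only regions and of 25.4% of distal H3K27ac regions of both marks. At distal H3K4me1 midpoints of both marks they stood in 16.7%, and at distal H3K27ac summits of both marks in 16.3%. They stood at 6.37% of distal H3K27ac only midpoints, under the 9.05% of the genome windows. CCGGAAG, the letters of ETS factors, stood at 8.38% of promoter summits of both marks, 3.08% of promoter summits of H3K27ac only and 13% of start site windows. The unlike share of protein-coding promoters in these sets applies to the ETS letters as well. A core of the CTCF motif stood at 5.04% of distal H3K4me1 only midpoints, 2.67% for both marks, 1.62% for H3K27ac only and 0.769% of genome windows. AP-1 letters are shown in capitals for the 2 strongest distal regions outside exons of each class that hold them within 15 bp of the midpoint, a choice made after the values were seen (GRCh37, plus strand, 50 bases).

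Both marks, in a gene body, nearest start site THSD4 (chr15:71587903-71587952): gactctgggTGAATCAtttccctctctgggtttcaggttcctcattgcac
Both marks, in a gene body, nearest start site EPHB2 (chr1:23158658-23158707): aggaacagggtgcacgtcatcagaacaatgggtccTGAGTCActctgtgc
H3K4me1 only, in a gene body, nearest start site RNF220 (chr1:44997733-44997782): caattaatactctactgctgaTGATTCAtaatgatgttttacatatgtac
H3K4me1 only, between genes, nearest start site C3orf80 (chr3:159852451-159852500): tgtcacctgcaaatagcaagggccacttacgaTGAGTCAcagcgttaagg

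By mean percentile over the 4 lists, the strongest promoter region of both marks spanned FOSL1, an AP-1 subunit, with FIBP and CCDC85B (chr11:65654397-65672849). It reached percentile 99.9 in every list, with H3K27ac folds of 170 and 165 and H3K4me1 folds of 12.7 and 15.7. EPHA2, an ephrin receptor, followed (chr1:16469743-16484271) with folds of 160 and 145 for H3K27ac and 14.7 and 17 for H3K4me1. CSRNP1, the transcription factor gene MEF2D and SREBF1, a regulator of lipid synthesis, came next, with H3K27ac folds between 120 and 168 and H3K4me1 folds between 10.8 and 15.6. The distal regions lay near KRT80 (chr12:52536821-52547281, folds 126 and 164, 13.8 and 14.1), near NANOS3, in exons of GAS6 and RGS12, and 84732 bp from DUSP5, a MAP kinase phosphatase. All 10 regions were called for H3K27ac in every other list of the series and for H3K4me1 at 0 h and 1 h.

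The strongest promoter regions of H3K27ac only were MAGEA6, FANK1, ZBTB33, ZNF268 and ZDHHC9. MAGEA6, a cancer-testis antigen gene on the X chromosome (chrX:151866298-151868401), had H3K27ac folds of 51.8 and 51 and an H3K4me1 peak in replicate 2 alone. MAGEA6 belongs to a family of near-identical copies, so its reads are of uncertain origin. ZBTB33, which encodes the methyl-CpG binding factor Kaiso, had folds of 24.4 and 25.5, likewise with an H3K4me1 peak in replicate 2 alone. ZNF268, a zinc finger gene, had 24.2 and 17.1, ZDHHC9, a palmitoyltransferase gene, 21.8 and 21.2, and FANK1 12.1 and 12.7, all 3 with no H3K4me1 peak at 10 h. The 5 were called for H3K27ac in all 8 other lists. H3K4me1 was called at ZDHHC9 in both lists of 0 h and of 1 h, and at ZBTB33 in both of 0 h and 1 of 1 h. MAGEA6 had it in both 1 h lists, ZNF268 in 1 of them and FANK1 in none of 0 h or 1 h.

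The strongest distal regions of H3K27ac only included those near PPIAL4G, FBXO47, IFNGR2 and AKR1D1. The one near PPIAL4G (chr1:143466728-143467660) was 300687 bp from the start site, with folds of 13.9 and 19. The one near AKR1D1 (chr7:137848931-137850611) had folds of 24.2 and 16 and was called in 1 WT 0 h list, both WT 1 h lists and no list of the RAD21 line. The last had a weak H3K4me1 peak in replicate 1 alone, with a fold of 2.75.

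The strongest H3K4me1 only regions over promoters were GIP, TEF, ANKRD40CL, ITIH4 and GAS7, and some had been called for H3K27ac at 0 h or 1 h, in lists of which 3 of 4 were named without input. GIP, the gene of an incretin hormone (chr17:47044421-47053516), had H3K4me1 folds of 8.49 and 9.92 and no H3K27ac peak at 10 h, although H3K27ac was called there in both WT lists of 0 h and of 1 h. ITIH4, a gene best known from the liver, had the same history, with H3K4me1 folds of 9.36 and 11.7. ANKRD40CL (8.29 and 8.19) was called for H3K27ac in both WT 0 h lists and no WT 1 h list. GAS7 (9.31 and 10.6) was called in none of the 4 WT lists but in all 4 of the RAD21 line. TEF, a PAR bZIP factor gene (10.6 and 10.3), had an H3K27ac peak in replicate 1 alone at 10 h.

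The strongest distal regions of H3K4me1 only lay near GPR142 (folds 15.1 and 17.1), in an intron of SLC39A11 (10.2 and 12), near COL1A1 (12.9 and 11.2), in an intron of PTPRN2 (4.74 and 8.24) and in an exon of STAC2 (10.9 and 10.2). The sequence at the midpoint of the PTPRN2 region is a tandem repeat, so the placement of its reads is less certain. The regions near COL1A1 and at STAC2 had H3K27ac in both WT lists of 0 h and of 1 h and in replicate 1 alone at 10 h. The region near GPR142 had an H3K27ac peak in replicate 2 alone at 10 h, with a fold of 3.35. It was also called in 1 WT list of 0 h, 1 of 1 h and all 4 lists of the RAD21 line. The regions in SLC39A11 and PTPRN2 had no H3K27ac peak at 10 h. In the class as a whole, 2632 of 48130 regions (5.47%) had been called for H3K27ac in both WT 0 h lists, and 35836 (74.5%) in none of the 8 other H3K27ac lists. The WT 0 h lists are named without input and hold fewer H3K27ac peaks than the 10 h lists.

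The H3K4me1 calls of 10 h recurred in most other H3K4me1 lists. Of the H3K4me1 only regions 83% were called in all 4 H3K4me1 lists of 0 h and 1 h, and of the H3K4me1 regions of both marks 96.7%. H3K27ac regions of both marks were called in all 8 other H3K27ac lists in 66.3% of cases and in none in 3.85%. H3K27ac only regions were called in all 8 in 1.67% and in none in 42.2%. They were called in both WT 0 h lists, named without input, in 3.98% of cases and in both 0 h lists of the RAD21 line, named with it, in 18.3%.

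The same construction at the other times gave far fewer H3K27ac only regions, 967 of 27363 at 0 h (3.53%) and 401 of 24736 at 1 h (1.62%). The lists differ in more than time: the widest peak was 3905 to 4210 bp in the 3 WT lists named without input and 39572 to 68414 bp in the 7 others. Set against the H3K4me1 regions of 10 h, so that only the H3K27ac list changes, 29.9% and 27% of the peaks of the WT 10 h lists had no H3K4me1. In the 3 WT lists whose peak names lack "input" it was 7.65% to 10.5%, and in WT 1 h replicate 2, which carries it, 14.6%. In the RAD21 line it was 24% and 26.8% at 0 h and 12.9% and 12.1% at 1 h, all named with input. Of the peaks without H3K4me1, 66.8% to 74.3% lay in gene bodies in the lists named without input and 86.1% to 93.1% in the others. At 0 h in WT, the naming and the time cannot be told apart.

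Promoters of genes were also sorted by what lay directly over them. Of 20136 protein-coding genes, 11711 (58.2%) had both marks over a promoter, 443 (2.2%) H3K27ac alone, 1801 (8.94%) H3K4me1 alone and 6181 (30.7%) neither. The 443 were not weak. Those with the highest H3K27ac percentiles, chosen after the values were seen, included CKS2, a cyclin-dependent kinase subunit, SCAF1, the RNA helicase gene DDX5, the proteasome gene PSMA7 and KMT2E, at 99.8 or higher in both lists. Their H3K27ac regions can still count as both marks, since H3K4me1 may begin beyond the promoter window and touch the region.

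Most p53 target genes had both marks. Of 41 canonical targets 38 (92.7%) had both marks over the promoter, against 58.2% of all protein-coding genes. TRIM22 had H3K4me1 alone, and SPATA18 and EDA2R had neither. The median percentile of the list where called was 92.3 for H3K27ac and 86.9 for H3K4me1, against 87 and 73.3 over all genes.

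CDKN1A, the p21 cell cycle inhibitor, had promoter H3K27ac folds of 19.6 and 31.1 at 10 h, and MDM2, the p53 ubiquitin ligase, 99.8 and 41.2. Of the apoptosis genes, BAX had 64.1 and 60.4, BBC3, which encodes PUMA, 53 and 42.3, FAS 17 and 18.2, and TNFRSF10B, a TRAIL receptor gene, 135 and 85.2. TP53INP1 had 40.4 and 34.1. The stress-sensing gene SESN1 had 38.8 and 41.8, the antiproliferative gene BTG2 24.3 and 22.4, the kinase gene PLK2 58.9 and 60, and the cytokine gene GDF15 42.2 and 47.5. The 2 lists stood furthest apart at MDM2. H3K4me1 percentiles over these promoters lay between 31.6 at SESN1 in replicate 2 and 99 at GDF15 in replicate 1.

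Both marks lay over the promoters of 29 of 30 G2/M and mitosis genes, 34 of 35 cytosolic ribosomal protein genes, 22 of 23 AP-1 and immediate early genes and 29 of 30 housekeeping genes. The 1 exception in each was H3K27ac alone, at AURKA, RPS25, DUSP4 and TBP, with H3K27ac percentiles from 88.4 to 99.1. Of 44 developmental regulators, 13 had both marks, 8 H3K4me1 alone and 23 neither, with PAX2 (percentiles 88.2 and 87.8), HOXC13 (82.2 and 86) and SIX2 (79.8 and 76.8) leading the H3K4me1 state. Of 24 intestinal transcription factors 15 had both, 4 H3K4me1 alone and 5 neither. ATOH1 (60.4 and 63.8), ISX (59.3 and 55.9) and NR5A2 (51.6 and 61.9) led those with H3K4me1 alone, and HNF4A and CDX1 had neither. Of 21 Wnt targets 15 had both. The stem cell gene LGR5 (77.9 and 85.2), SP5 (90.2 and 91.6) and the Wnt inhibitor gene NOTUM (97.5 and 95.7) had H3K4me1 alone, and ASCL2, LEF1 and APCDD1 had neither.

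**Figure D4:**
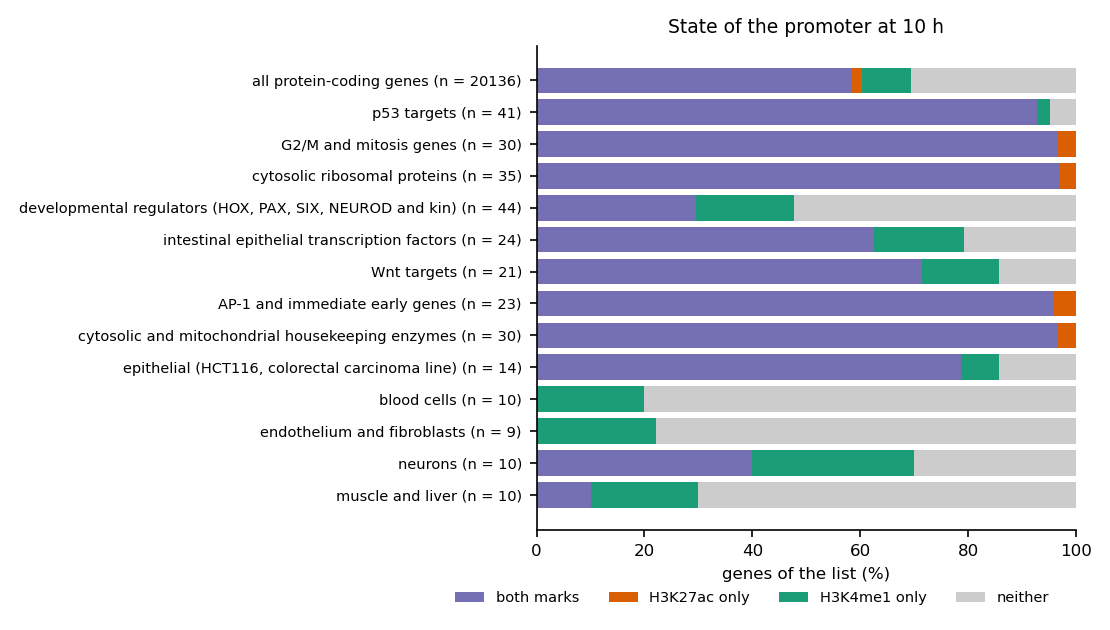
Share of the genes of each list whose promoters held both marks, H3K27ac alone, H3K4me1 alone or neither at WT 10 h, with the number of genes found in the annotation. The G2/M, ribosomal protein, AP-1 and housekeeping lists stand between 95.7% and 97.1% for both marks and p53 targets at 92.7%, against 58.2% of all protein-coding genes.

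Whether H3K4me1 changed its rank between 0 h and 10 h was tested with limma over the 60476 regions called in all 6 H3K4me1 lists. Within-list ranks by −log10 p were turned into normal scores, so a difference of 1 is 1 SD of the scores, and p-values were adjusted by Benjamini-Hochberg. Higher at 10 h were 372 regions (0.615%) and lower were 14 (0.0231%). Among 23396 regions of both marks 229 were higher (0.979%) and 8 lower. Among 37008 of H3K4me1 only 143 were higher (0.386%) and 6 lower. Off promoters, 187 of 9509 regions of both marks were higher (1.97%), against 42 of 13887 over promoters (0.302%). These counts rest on all 4 lists of the contrast. Without 10 h replicate 1 or 2, 7 and 9 regions were higher, without 0 h replicate 1 or 2, 169 and 132, and ranked by fold 4 were.

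Of the 229 regions of both marks that rose, 113 (49.3%) had H3K27ac in both 10 h lists and in neither WT 0 h list, against 6.93% of all such regions tested. The naming of the 0 h H3K27ac lists noted above applies to both shares. The 2 sets also differ in kind. At 0 h the median H3K4me1 percentile was 45.4 for the 229 and 79.4 for all such regions tested. A promoter lay under 18.3% and 59.4%, and the median widths were 2547 and 4198 bp. The 2 shares thus do not compare like regions. The p53 element stood in 3 of the 229 (1.31%) and 3 of the 143 (2.1%), against 0.363% and 0.0486% of the regions tested in these classes. With 3 regions each, these shares are descriptions.

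Among regions of both marks, a region 40445 bp from CIBAR2 (chr16:85184795-85188250) rose by 1.69 ± 0.17 on the score scale (SE, limma adjusted p = 0.000829), with H3K27ac at all times. A region in an intron of MRPL13 went from 25.7 and 23.9 at 0 h to 93.8 and 90 at 10 h. In H3K4me1 only, regions 32303 bp from PABPC4, in an intron of CTIF (nearest start site SMAD7) and in an exon of NHEJ1, a DNA end-joining gene, rose by 2.56 ± 0.293, 2 ± 0.231 and 1.57 ± 0.194 (limma adjusted p = 0.00143, 0.00148 and 0.0023). All 3 had an H3K27ac peak in 1 of the 2 lists at 10 h and in neither WT 0 h list.

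The named falls were smaller than the named rises. Of both marks, the region over the promoter of TRIM59 (chr3:160161425-160169642) had percentiles of 96.3 and 91.8 at 0 h and 63.5 and 63.5 at 10 h (score −1.35 ± 0.196, limma adjusted p = 0.00428). A region in the body of IL6R fell by 0.906 ± 0.165 on the score scale (limma adjusted p = 0.0162) and the promoter region of CELF1 fell by 0.934 ± 0.184 (limma adjusted p = 0.0274). In H3K4me1 only, a region in an intron of DNAJC6 fell by 1.31 ± 0.208 (limma adjusted p = 0.00648), one 690559 bp from MYC, over the promoter of a non-coding gene, changed by −1.14 ± 0.212 (limma adjusted p = 0.018) and one 33448 bp from LYZL4 changed by −0.802 ± 0.164 (limma adjusted p = 0.0351). Over the alternatives the adjusted p ranged from 0.000471 to 0.0718 for the rises of both marks near CIBAR2 and in MRPL13, from 0.000894 to 0.0789 for the 3 rises of H3K4me1 only and from 0.00271 to 0.328 for the 6 named falls, always in the same direction.

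**Figure D5:**
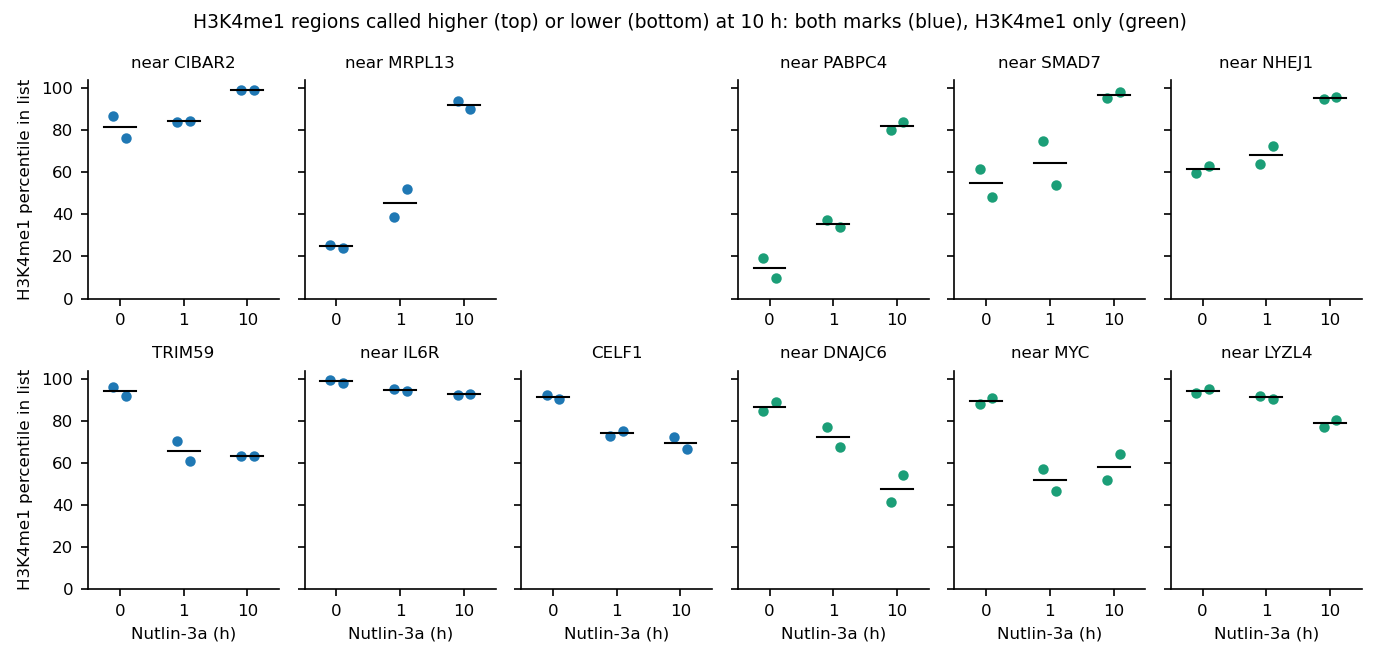
H3K4me1 percentile within each list at 0, 1 and 10 h of Nutlin-3a for the named regions called higher or lower in both marks (blue) and in H3K4me1 only (green), titled by the promoter or the nearest protein-coding start site, with 1 point per list and a line at their mean. In the upper row both 10 h points lie above both 0 h points, and in the lower row below them.

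Of 38 targets with a region tested at the promoter 1 was higher, RRM2B, a p53-inducible ribonucleotide reductase subunit, and 0 were lower, where 0.615% of all regions tested were higher and 0.0231% lower, and 0.302% of promoter regions of both marks were higher. RRM2B had percentiles of 84.1 and 77 before and 97.5 and 95 after 10 h (score difference 1.02 ± 0.187, limma adjusted p = 0.0162). PLK2, with the response element printed above, went from 67.8 and 68.3 to 86.8 and 88.6, with both 10 h values above both 0 h values, but did not pass (0.804 ± 0.183, limma adjusted p = 0.0677). CDKN1A did not pass either (−0.893 ± 0.214, limma adjusted p = 0.092), at 98.3 and 99.8 before and 92.9 and 96 after. At the other 9 genes listed above the adjusted p was 0.147 or more. In the 7 other gene lists, limma called 0 promoters in either direction, a count that background shares this low leave uninformative.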

How the data were processed

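H3K27ac and H3K4me1 ChIP-seq of HCT116 cells gave 1 peak list per library. The authors trimmed reads with Trim Galore 0.6.6, aligned them to GRCh37 with Bowtie2 2.3.2 and called peaks with MACS2 2.2.7.1, narrow for H3K27ac and broad for H3K4me1. The deposited columns used here were the fold enrichment over the local background (a ratio) and −log10 p and −log10 q of the peak caller. The lists hold no read counts, so depth was not taken into account here. The authors give library statistics in their supplement. Nothing in the lists was rescaled here.

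Samples were grouped by the labels. Regions were merged within a mark, kept where both 10 h lists held a peak, and annotated with GENCODE 44 on GRCh37, from 1000 bp before to 200 bp after start sites for promoters. Sequence came from GRCh37 (samtools 1.23.1, pysam 0.24.0, Python 3.11.15). H3K4me1 ranks of all 6 lists were fitted with limma 3.58.1 in R 4.3.3, called at an adjusted p under 0.05. Named were the 5 strongest promoter and 5 strongest distal regions of each class, 11 p53 targets whatever their values, the 3 regions with the smallest limma p per direction and class, and the exceptions and leading genes of each gene list. Some items that this rule names are not reported here. H3K27ac was not fitted over time, because its 0 h lists carry other peak names than its 10 h lists. Classes, gene lists and tests were chosen with earlier results of these data known. On simulated data for H3K4me1 at 10 h against 0 h over 60476 regions, limma recovered 42% of 100 changes of 1 score unit and 1% of 100 changes of 0.5. Alternatives were a stricter q, other promoter definitions, other overlap rules, ranking by fold, a replicate block and leaving out each list.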

Additional observations from a re-analysis of the deposited data

How the results depend on the processing

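With −log10 q of at least 5 in both marks, H3K27ac only held 3499 regions and H3K4me1 only 19217, and the promoter shares were 36.3% for H3K27ac only, 54.6% for both marks and 14% for H3K4me1 only. With that threshold in H3K27ac alone, an alternative chosen after seeing the data, H3K27ac only held 1578 regions and the shares were 10.1%, 54.8% and 10.3%. A promoter of 2500 bp on each side gave 16.3%, 53.3% and 18.3%, and protein-coding start sites alone 2.17%, 39.3% and 4.55%. Leaving out 1 list at a time gave 6300 to 14705 regions of H3K27ac only, 28368 to 34422 of both marks and 46294 to 61621 of H3K4me1 only, with promoter shares of 5.37% to 7.45%, 39.5% to 46.1% and 8.77% to 9.73%. A single H3K27ac list keeps peaks that the other lacks.

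For H3K4me1 at 10 h against 0 h, ranking by fold left 4 regions higher and 0 lower, 3 and 0 for both marks and 1 and 0 for H3K4me1 only, while 4555 had an unadjusted limma p under 0.05. Regions called in at least 4 of 6 lists gave 238 higher in H3K4me1 only. Without 1 list at a time, 7 to 388 regions were higher and 0 to 12 lower, 5 to 235 and 0 to 7 for both marks, and 2 to 153 and 0 to 5 for H3K4me1 only. The cause was not tested. A lone list was assumed to vary like the other groups. Replicate numbers did not pair the lists (correlations of deviations 0.00739, 0.00084 and 0.00399), and a replicate block gave 386 higher and 15 lower, 362 of the 386 shared with the fit without it, with 240 and 8 for both marks and 146 and 7 for H3K4me1 only.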
